A study of Mus musculus with 24 samples.

Results

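The unfolded protein and integrated stress genes comprised 10 mouse genes: Hspa5, Hsp90b1, Xbp1, Herpud1, Sdf2l1, Ddit3, Atf4, Trib3, Asns and Chac1. They were found by these symbols, and each of the 10 had a single row in the hepatocyte table (31053 genes), the cholangiocyte table (25876 genes) and the Smart-Seq table (20729 genes). The values were FPKM, fragments scaled to transcript length and library size, so levels could be set side by side between genes within a table.

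The 24 samples were liver cells or organoids from wild-type male BALB/c mice aged 6 to 8 weeks. Of these samples 21 gave bulk libraries and 3 gave Smart-Seq libraries. Primary hepatocytes (Pri-Hep) had been enriched on Percoll and depleted of EpCAM-positive cells, and Hep-Orgs, hepatocyte organoids, were grown from such cells in Matrigel to passage 1, 5 or 10 (P1, P5, P10) in Hep-Med with DAPT, an inhibitor of Notch cleavage, and the glucocorticoid dexamethasone. Cho-Orgs, cholangiocyte organoids, taken at P0, P5 and P10, came from EpCAM-positive cells in a medium without DAPT and dexamethasone but with forskolin, Wnt3a and Noggin, and each of these 7 bulk groups had 3 libraries. For Smart-Seq a single library each was made from Hep-Orgs at P0 of round-like, intermediate and grape-like shape, which the study's text places in Hep-Med before DAPT and dexamethasone were introduced. No culture was given an agent that is named as an inducer of stress, and N-acetylcysteine, nicotinamide and a ROCK inhibitor were in both media. Cell source and medium changed together between Hep-Orgs and Cho-Orgs, so they cannot be told apart, and the 3 tables were compared only descriptively because each was normalised on its own.

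Secretory cells such as hepatocytes and cholangiocytes fold large amounts of protein in the endoplasmic reticulum (ER). When unfolded protein accumulates, the sensors IRE1, ATF6 and PERK start the unfolded protein response: IRE1 splices the mRNA of Xbp1, ATF6 is cleaved into a transcription factor, and PERK phosphorylates eIF2 alpha. The last step is shared with the integrated stress response, which also senses amino acid shortage, haem shortage and double-stranded RNA, and which favours translation of Atf4 while general translation falls. These are measurements of mRNA at gene level, so neither the splicing of Xbp1 nor the translation of Atf4 was measured.

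The bulk depth was 14068906 to 27160365 fragments per library in the hepatocyte table and about 37570000 to 40050000 in the cholangiocyte table, and was about 40040000 to 40400000 in the Smart-Seq table. The hepatocyte labels did not match their markers. In the 3 libraries labelled Pri-Hep, Alb stood at 106 to 121 FPKM and Cps1, a urea cycle enzyme, at 0.817 to 1.40 FPKM, whereas the biliary genes Spp1, Krt19 and Epcam reached at least 3089.6, 229 and 265 FPKM. The genes named here are only a part of each marker list. Of the 8 hepatocyte markers 7 reached 1 FPKM in these libraries, as did 5 of the 6 cholangiocyte markers. The summed level of 6 cholangiocyte markers was 3615 to 3834 FPKM over all 12 libraries of that table, against 604.6 to 665.5 FPKM for 8 hepatocyte markers. In the libraries labelled Pri-Hep most of the cholangiocyte sum (3674 to 3781 FPKM) was Spp1, and without Spp1 the 2 sums would be close. The 9 libraries labelled Hep-Orgs thus had the same marker pattern as the 3 labelled Pri-Hep, and both names stand below for the labels only. Whether labels or files were exchanged was not tested. No 2 libraries differed by as little as counting noise, for which the mean chi-square per gene is 1. In the hepatocyte table this value was 1.94 to 3.16 between replicates and 1.82 to 4.56 between libraries of different groups, so the groups were about as alike as their replicates. In the cholangiocyte table it was 5.61 to 120.9 and 323.5 to 861.

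The promoters of 6 of the 10 genes hold elements through which the 2 responses are known to act, and 5 are shown because the genes that carry them did not move alike. All 10 matched a RefSeq promoter by symbol (GRCm38.p6, a C57BL/6J reference, 250 bases before to 50 bases after the start). The ER stress response element (ERSE), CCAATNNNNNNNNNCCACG, is bound by NF-Y and ATF6, the related ERSE-II is ATTGG, any base and CCACG, and TGATGNAA is the C/EBP-ATF element bound by ATF4 with a C/EBP partner. Each was searched on both strands, and no match overlapped a match of another of these motifs. Matches are in capitals, and each stretch is given 5′ to 3′ in the sense of its gene.
Hspa5: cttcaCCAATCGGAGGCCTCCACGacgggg
Hsp90b1: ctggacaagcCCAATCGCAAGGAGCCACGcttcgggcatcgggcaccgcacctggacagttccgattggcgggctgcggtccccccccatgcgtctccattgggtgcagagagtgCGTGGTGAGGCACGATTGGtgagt
Herpud1: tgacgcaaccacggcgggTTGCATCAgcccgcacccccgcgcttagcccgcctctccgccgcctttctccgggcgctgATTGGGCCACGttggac
Asns: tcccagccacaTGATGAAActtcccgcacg
Chac1: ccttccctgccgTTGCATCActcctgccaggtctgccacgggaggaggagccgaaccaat

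The Hspa5 stretch is chr2:34772020-34772049 on the plus strand and holds an ERSE 65 to 47 bases before the start. The Hsp90b1 stretch is chr10:86705528-86705666 on the minus strand and holds 2, 212 to 194 bases before the start and, on the opposite strand, 107 to 89 bases before it. Herpud1 (chr8:94386299-94386393, plus strand) has an ERSE-II 52 to 42 bases before its start and a C/EBP-ATF element on the opposite strand 112 to 105 bases before it. Asns (chr6:7693214-7693243, minus strand) has that element 23 to 16 bases before its start, and Chac1 (chr2:119351037-119351096, plus strand) has it on the opposite strand 193 to 186 bases before its start. Trib3 had it 14 to 21 bases after its RefSeq start, and Xbp1, Sdf2l1, Ddit3 and Atf4 had none of these letters in the window. Of 32851 mouse promoters of the same length, 0.119% hold an ERSE, 0.0365% an ERSE-II and 3.97% a C/EBP-ATF element. Distances are from the RefSeq start, which is not always the first base of the gene as listed below: the Hspa5 and Asns stretches lie inside the listed gene, and the Trib3 element lies before it. A match describes the letters only and does not show that a factor was bound.

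The first question was how the 10 genes behaved while Cho-Orgs were passaged. Chac1, Trib3, Atf4, Ddit3, Asns and Hspa5 rose in each of the 2 steps, Xbp1 and Herpud1 rose from P5 to P10 and were not called in the first step, and Hsp90b1 fell from P5 to P10. The largest differences between P10 and P0 were those of Chac1, 9.84-fold on the FPKM + 1 scale (log2 fold change 3.30 ± 0.17 SE), and Trib3, 7.04-fold (2.82 ± 0.16). They were the 15th and 32nd highest log2 fold changes among the 11593 genes tested. Changes were called with limma on log2(FPKM + 1) at an adjusted p under 0.05 over all genes tested.

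At P5 against P0, 7 of the 10 genes were higher, 0 lower and 3 were not called, where the test called 34% of all genes higher and 22.6% lower. With library scaling by median ratios, the share of higher genes among all those called went from 60.0% to 47.2%, while the same number of stress genes was called. At P10 against P5, 8 were higher and 1 lower, against 31% and 30.5% of all genes. At P10 against P0, 9 were higher and 1 lower, against 41% and 31.3% of all genes. The median log2 fold change of the 10 genes was 0.77, 0.62 and 1.44 in the 3 comparisons, beside 0.06, 0.01 and 0.07 for all genes. These comparisons share libraries, so they are not independent of each other. The 10 genes were chosen with earlier results of these data known, so the shares describe them and do not test them as a set.

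The libraries of P5 and P0 did not overlap for 7 of the 10 genes, all higher at P5, where 36.7% of all genes lay wholly higher and 24.8% wholly lower. Between P10 and P5, 8 were wholly higher and 1 wholly lower (37.5% and 36.8% of all genes), as were 8 and 1 between P10 and P0 (42.6% and 32.6%). Hspa5, Ddit3, Atf4, Trib3, Asns and Chac1 were ordered P0, P5, P10 without overlap.

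**Figure D1:**
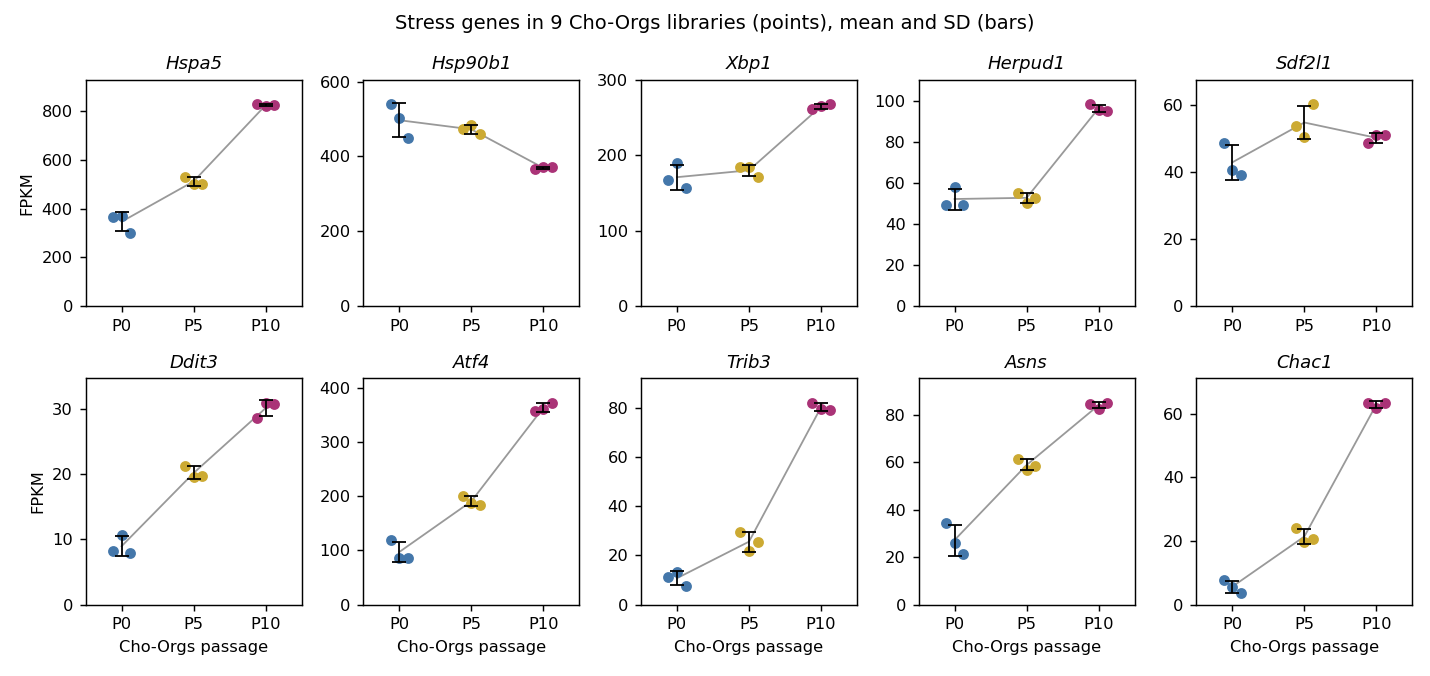
FPKM of the 10 stress genes in each of the 9 Cho-Orgs libraries by passage. Points are libraries, bars are the mean and SD of 3 libraries, and each panel has its own axis from 0. At P10 the 3 libraries lie above every P0 and P5 library for 8 genes, below them for Hsp90b1, and overlap both for Sdf2l1.

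Hspa5 (ENSMUSG00000026864, chr2:34771970-34777547, plus strand, GRCm38 as for all genes here) encodes BiP, the Hsp70 chaperone of the ER lumen that also holds the stress sensors inactive. Its level was 368, 372 and 300.5 FPKM at P0, 532, 502 and 504 FPKM at P5, and 830.3, 820.5 and 827 FPKM at P10. The 3 passages did not overlap. The log2 fold change was 0.57 ± 0.08 (SE, adjusted p = 0.000183) in the first step and 0.69 ± 0.08 (adjusted p = 4.67e-05) in the second. Over the 9 libraries its rank among all genes moved between 198 and 67.

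Hsp90b1 (ENSMUSG00000020048, chr10:86690209-86705509, minus strand) encodes GRP94, the Hsp90 chaperone of the same compartment. The gene overlaps 1810014B01Rik on the other strand and Gm15344 and Gm25745 on its own strand. Hsp90b1 stood at 540.3, 502 and 449 FPKM at P0, at 474, 484 and 459 FPKM at P5, and at 365, 371 and 372 FPKM at P10. The P0 and P5 libraries overlapped, and all P10 libraries lay below them. Hsp90b1 did not pass the test in the first step (−0.07 ± 0.06, adjusted p = 0.381) and fell by 0.35 on the log2 scale in the second (SE 0.06, adjusted p = 0.000982). Without P0 replicate 3 the first step was called too (−0.14, adjusted p = 0.0458). Hsp90b1 and Hspa5, whose promoters above both hold an ERSE, therefore changed in opposite directions from P5 to P10. The ratio of Hsp90b1 to Hspa5 within a library was 1.35 to 1.49 at P0, 0.891 to 0.965 at P5 and 0.440 to 0.452 at P10.

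Sdf2l1 (ENSMUSG00000022769, chr16:17130138-17132383, minus strand) encodes an ER protein that works with BiP and its J-protein partners. It was at 48.7, 40.7 and 39.0 FPKM at P0, 53.5, 50.3 and 60.2 FPKM at P5, and 48.4, 50.9 and 51.0 FPKM at P10. It rose in the first step (0.35 ± 0.09, adjusted p = 0.00745), and P10 overlapped both P5 and P0. The P10 against P0 difference of 0.23 ± 0.09 was just past the threshold (adjusted p = 0.0395). That call was lost with a replicate block (adjusted p = 0.0557), with median-ratio scaling (0.155) and when any 1 of 6 libraries was left out.

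Xbp1 (ENSMUSG00000020484, chr11:5520659-5525893, plus strand) encodes the transcription factor whose mRNA IRE1 splices. Its level was 167, 189 and 156 FPKM at P0, 185, 184 and 171 FPKM at P5, and 261, 266 and 268 FPKM at P10. The P0 range contained the P5 range, and P10 lay above both. The first step gave 0.08 ± 0.07 (adjusted p = 0.348) and the second 0.56 ± 0.07 (adjusted p = 8.4e-05). Without P0 replicate 2 the first step was called as well (0.15, adjusted p = 0.0289), and with median-ratio scaling it was −0.01.

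Herpud1 (ENSMUSG00000031770, chr8:94386438-94395377, plus strand) encodes a membrane protein of ER-associated degradation, and its promoter above holds both kinds of element. It was at 49.1, 58.1 and 49.3 FPKM at P0, 55.1, 50.4 and 52.7 FPKM at P5, and 98.4, 95.6 and 95.2 FPKM at P10. As for Xbp1, P0 and P5 overlapped and P10 stood apart. The first step gave 0.02 ± 0.07 (adjusted p = 0.823), whose sign changed with median-ratio scaling and without single libraries, and the second gave 0.86 ± 0.07 (adjusted p = 5.18e-06). An antisense gene, Gm15890, overlaps Herpud1 in GENCODE M21, and the strand setting of the counting is not given in the sources used here.

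Atf4 (ENSMUSG00000042406, chr15:80255184-80257541, plus strand) encodes the effector of the integrated stress response. The level was 119, 85.4 and 87.0 FPKM at P0, 201, 188 and 183 FPKM at P5, and 356, 361 and 372 FPKM at P10. Each passage lay above the one before without overlap. The steps were nearly equal on the log2 scale, 0.98 ± 0.11 (adjusted p = 5.37e-05) and 0.93 ± 0.11 (adjusted p = 6.53e-05).

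Ddit3 (ENSMUSG00000025408, chr10:127290774-127296288, plus strand) encodes CHOP, a C/EBP family factor linked to cell death under prolonged stress. It was at 8.28, 10.7 and 7.92 FPKM at P0, 21.3, 19.5 and 19.7 FPKM at P5, and 28.7, 30.9 and 30.7 FPKM at P10. The passages did not overlap, and the steps were 1.10 ± 0.09 (adjusted p = 1e-05) and 0.56 ± 0.09 (adjusted p = 0.000648). Ddit3 overlaps Mars and Gm4189 on the opposite strand in GENCODE M21, and a separate entry also named Ddit3 on its own strand. Its counts may not be fully separate from theirs.

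Trib3 (ENSMUSG00000032715, chr2:152337422-152344032, minus strand) encodes a pseudokinase that is induced by ATF4 and CHOP and restrains them. Its level was 11.2, 13.4 and 7.74 FPKM at P0, 29.7, 21.7 and 25.5 FPKM at P5, and 82.0, 79.5 and 79.0 FPKM at P10. It rose by 1.20 ± 0.16 (adjusted p = 0.000202) and then by 1.62 ± 0.16 (adjusted p = 2.53e-05) on the log2 scale, without overlap between passages.

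Asns (ENSMUSG00000029752, chr6:7675169-7693254, minus strand) encodes asparagine synthetase, a target of ATF4 when amino acids are short. It was at 34.3, 26.1 and 21.4 FPKM at P0, 61.4, 56.9 and 58.3 FPKM at P5, and 84.6, 82.5 and 85.1 FPKM at P10. The passages did not overlap, and the steps were 1.11 ± 0.13 (adjusted p = 7.88e-05) and 0.51 ± 0.13 (adjusted p = 0.00729).

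Chac1 (ENSMUSG00000027313, chr2:119351229-119354381, plus strand) encodes a glutathione-degrading enzyme downstream of ATF4 and CHOP. Its level was 7.63, 5.52 and 3.85 FPKM at P0, 24.1, 19.6 and 20.5 FPKM at P5, and 63.4, 61.7 and 63.4 FPKM at P10. The passages did not overlap, and the steps were 1.78 ± 0.17 (adjusted p = 1.92e-05) and 1.52 ± 0.17 (adjusted p = 4.78e-05). About 247 fragments stood behind its lowest value and 3972 behind its highest. The ratio of Chac1 to Asns, whose promoter stretches above each hold a C/EBP-ATF element, was 0.180 to 0.223 at P0, 0.345 to 0.392 at P5 and 0.746 to 0.750 at P10. Replicates spread most at P0, where the CV over 3 libraries was 9.24% (Hsp90b1) to 33.4% (Chac1), against 0.607% (Hspa5) to 4.17% (Ddit3) at P10. The fit took a pooled spread per gene over all passages, so a gene has the same SE in both steps and its SE does not show this difference.

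**Figure D2:**
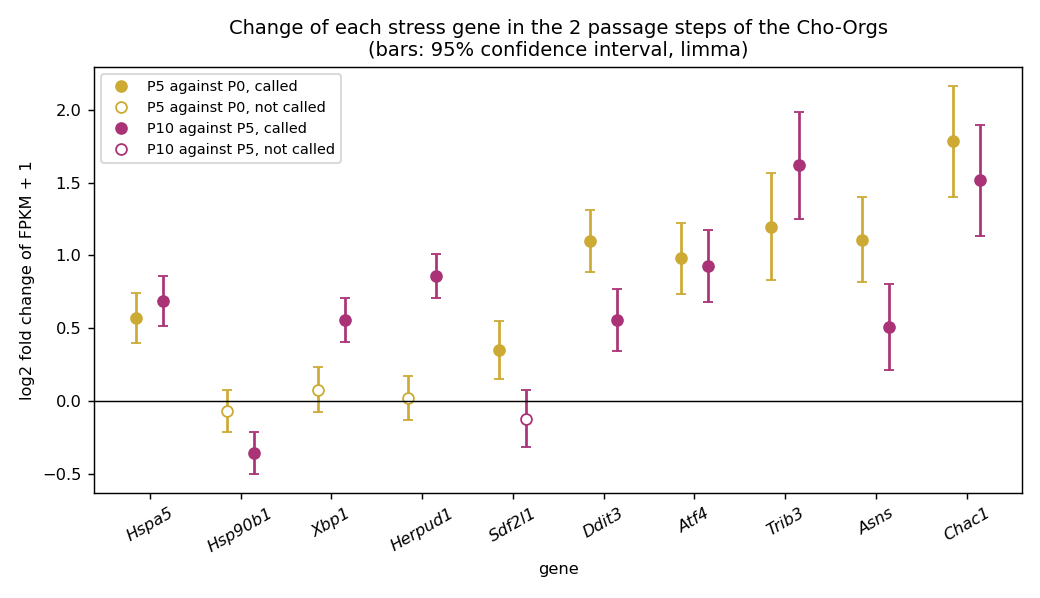
Log2 fold change of FPKM + 1 for each stress gene in the 2 passage steps of the Cho-Orgs, with the 95% confidence interval from limma. The intervals use a pooled spread per gene over all passages. Filled points were called at an adjusted p under 0.05 and open points were not. Xbp1 and Herpud1 are near 0 in the first step (0.08 and 0.02) and at 0.56 and 0.86 in the second, whereas Ddit3 goes from 1.10 to 0.56.

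The difference between the 2 steps was then tested itself. It was called higher in the second step for Xbp1 (0.48 ± 0.12, adjusted p = 0.00811) and Herpud1 (0.84 ± 0.12, adjusted p = 0.00033), and lower for Ddit3 (−0.54 ± 0.16, adjusted p = 0.0206) and Sdf2l1 (−0.47 ± 0.15, adjusted p = 0.0291). In this test 20.9% of all genes were called higher and 27.8% lower. For the other 6 genes the difference was not called. Asns (−0.60 ± 0.23, adjusted p = 0.0512, and called with a replicate block, adjusted p = 0.0385) and Hsp90b1 (−0.28 ± 0.11, adjusted p = 0.0582) were nearest to the threshold. The lower calls were the less firm ones, since their number ranged from 0 to 4 when single libraries were left out.

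Other genes of the pathways were followed through 8 lists with 92 genes, and the lists differed in how evenly they moved from P0 to P10. All 13 ATF4 targets of amino acid supply and all 12 aminoacyl-tRNA synthetases were higher at P10, with median log2 fold changes of 1.77 and 1.31, where 41% of all genes were higher and 31.3% lower and the median was 0.07. The synthetases, which charge tRNAs, were also 12 of 12 higher in each single step, beside 34% and 31% of all genes. Of the 15 ER chaperones and folding enzymes, 6 were higher and 5 lower, with a median of −0.03, which is close to the shares of all genes. No member is in a list. The lists too were chosen with earlier results of these data known, so the shares here and below are descriptions and not tests of the lists.

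Among the amino acid genes, Aldh1l2, a mitochondrial folate enzyme, went from 2.81 to 5.56 FPKM at P0 to 46.9 to 49.1 FPKM at P10 (3.36 ± 0.17, adjusted p = 8.21e-08). Pycr1 of proline synthesis rose by 3.07 ± 0.08 (adjusted p = 1.48e-09). Phgdh, which starts serine synthesis and had the highest mean level in the list, rose by 1.20 ± 0.08 (adjusted p = 8.12e-07). Of the synthetases, Cars and Wars rose most (1.62 ± 0.10 and 1.50 ± 0.08), and Nars had the highest level and rose by 1.24 ± 0.09.

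Of the 10 partners and other stress targets of ATF4, 8 were higher and 1 lower (41% and 31.3% of all genes), with a median of 1.27. Stc2, a secreted glycoprotein, rose by 2.65 ± 0.10 and the transcription factor Atf5 by 2.44 ± 0.11. Nupr1, a stress-induced chromatin protein, had the highest level and rose from 236 to 354.5 FPKM at P0 to 1367 to 1487 FPKM at P10. Ddit4, an inhibitor of mTORC1 signalling, went the other way over the whole course (−0.52 ± 0.11, adjusted p = 0.00151), after a rise in the first step (0.46, adjusted p = 0.00478).

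Of the 14 stress sensors and eIF2 alpha regulators, 9 were higher and 3 lower (41% and 31.3% of all genes), with a median of 0.23. Ppp1r15a (GADD34), the stress-induced subunit that directs a phosphatase to eIF2 alpha, rose by 1.77 ± 0.06 and the sensor Atf6 by 1.41 ± 0.06. Mbtps1, a protease that cleaves ATF6, had the highest level in the list and rose by 0.31 ± 0.08 (adjusted p = 0.00576). Creb3l3, a liver-enriched relative of ATF6, fell by 2.30 on the log2 scale (SE 0.10), and Ern2, the IRE1 form of mucosal epithelia, fell by 1.60 (SE 0.41) from P0 levels that ranged between 0.345 and 4.53 FPKM.

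Of the 15 ER chaperones and folding enzymes, Hyou1, an Hsp70-related chaperone, and the BiP partner Dnajb9 rose most (1.03 ± 0.07 and 0.79 ± 0.10). Ero1a, the oxidase that supplies disulphide bonds, rose in the first step (0.63) and fell by 2.43 in the second, so that P10 was 1.80 ± 0.09 below P0 on the log2 scale. Calr and P4hb, abundant folding factors, fell by 0.62 (SE 0.06) and 0.59 (SE 0.05). Of the 15 genes, 4 were not called.

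Of the 12 degradation and translocation genes, 7 were higher and 3 lower (41% and 31.3% of all genes), with a median of 0.31. The ubiquitin ligase pair Syvn1 and Sel1l, which partners Herpud1, rose by 1.32 ± 0.05 and 0.84 ± 0.06. The lectin Os9, the mannosidase-like Edem1 and the abundant segregase Vcp fell by 0.46, 0.22 and 0.19. Outside the ER, 6 of 10 cytosolic heat shock genes were higher and 1 lower, against the same shares of all genes. Hspb1 rose by 2.04 ± 0.10 and Hspa1b by 1.33 ± 0.13, Dnajb1 fell by 0.45 (SE 0.08), and Hsp90ab1, the most abundant, was not called (0.15 ± 0.09, adjusted p = 0.151), though it was called without P0 replicate 1 (0.28, adjusted p = 0.000191). Of 6 mitochondrial chaperones and proteases, 2 were higher, Hspa9 (0.68 ± 0.05) and Lonp1 (0.35 ± 0.09), and 0 were lower, a smaller share higher than the 41% of all genes. Without P0 replicate 1, 4 were higher.

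**Figure D3:**
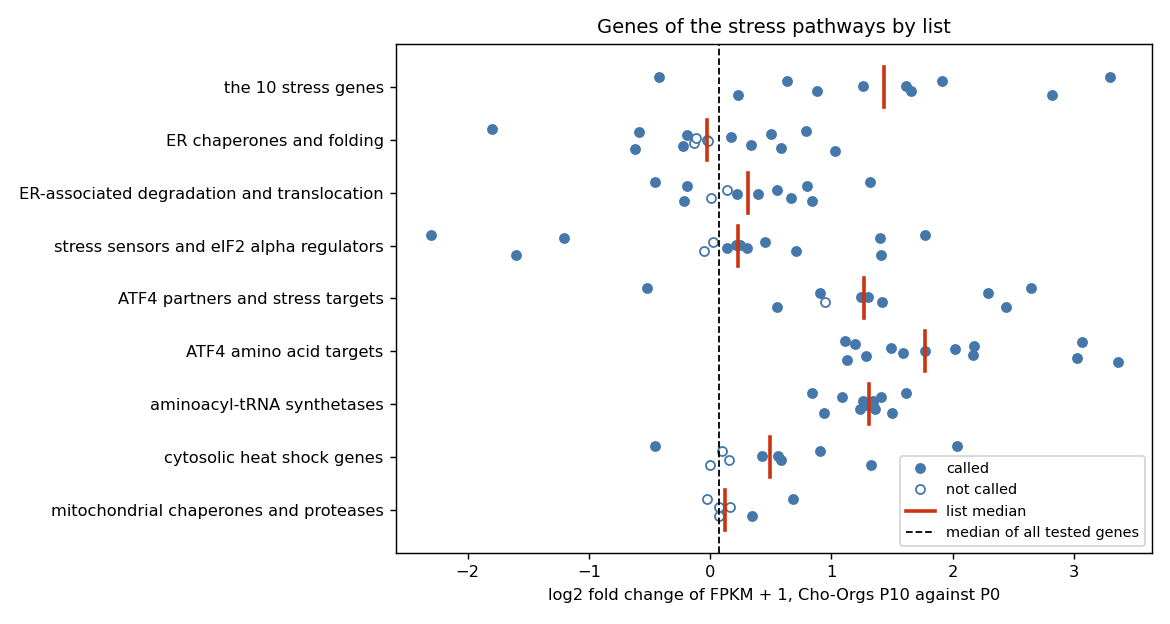
Log2 fold change of FPKM + 1 from Cho-Orgs P0 to P10 for the 10 stress genes and for each gene of the 8 pathway lists. Filled points were called by limma at an adjusted p under 0.05, red lines are list medians, and the dashed line is the median of all 11593 genes tested, 0.07. The amino acid genes and synthetases lie wholly to the right of 0, and the ER chaperones lie on both sides.

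The elements named above were also counted in these lists. An ERSE was found in 6 of the 12 ER chaperone genes that had a RefSeq promoter under the listed symbol, and in 2 of 10 degradation genes. A C/EBP-ATF element was found in 5 of 8 synthetases, 3 of 10 amino acid genes and 3 of 10 partners of ATF4. Calr, which fell, and Syvn1, which rose, both hold an ERSE, as Hsp90b1 and Hspa5 do. These are counts of letters over genes that share base composition and family, given as a description.

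Genes with a profile most like Hspa5 over the 9 Cho-Orgs libraries, by Pearson correlation of log2(FPKM + 1), were Trib3 (0.9970), Pck2 (0.9965), Ndel1 (0.9959), Arl14ep (0.9958) and Sar1a (0.9957). Among those most like Asns were Cars (0.9954), Hyou1 (0.9950), Slc3a2 (0.9947) and Tnf (0.9932). The points share 3 passages, so any gene that climbed evenly with passage scores high.

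Other features of the cultures moved with the same passages. The summed level of 8 hepatocyte markers was 7186 to 8021 FPKM at P0, 204 to 250 FPKM at P5 and 77.8 to 83.4 FPKM at P10, and Cps1 was at 0 in all P5 and P10 libraries. The sum of 6 cholangiocyte markers went from 4962 to 6344 FPKM at P0 to 3106 to 3141 FPKM at P10, and 2 of the 6 were called higher and 4 lower. Most of the fall was Spp1, at 3173 to 4649 FPKM at P0 and 525 to 531 FPKM at P10. The 2 that rose were Krt7, from 228 to 268 FPKM at P0 to 914 to 924 FPKM at P10, and Krt19, from 996 to 1141 FPKM to 1387 to 1420 FPKM. At P0 the hepatocyte sum lay above the cholangiocyte sum. Most of that hepatocyte sum was Alb, at 4526 to 5254 FPKM, and the study's text also reports strong Alb at P0. The name Cho-Orgs P0 therefore stands for the label, and P0 is the baseline of the P5 and P10 changes against it. The 6 proliferation genes all fell, their sum going from 165 to 253 FPKM at P0 over 90.5 to 97.7 at P5 to 12.3 to 13.8 FPKM at P10. The sum of 6 macrophage markers was 43.1 to 48.8, 72.1 to 77.3 and 10.1 to 10.5 FPKM at the 3 passages. The P5 sum was almost all Cd68, at 71.8 to 76.9 FPKM, since Lyz2, Adgre1 and C1qa were at 0 at P5 and Clec4f was at 0 throughout. The sums of 5 endothelial and 5 stellate cell markers did not exceed 0.232 and 1.02 FPKM. The part of these features in the stress gene changes was not tested, and in bulk samples a change in the mix of cells and a change per cell cannot be told apart.

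The second question was whether the 10 genes differed between the libraries labelled Pri-Hep and the Hep-Orgs, or between passages of the Hep-Orgs. In each of 7 comparisons 0 of the 10 genes was called by limma. Of the 10986 genes tested, 0% were called in 4 comparisons, 0.0091% in P1 and in P5 against the libraries labelled Pri-Hep, and 0.0273% in P10 against P5. Over these 70 tests, 9 (12.9%) had an unadjusted p under 0.05, beside 8.43% of the tests of all genes, and log2 fold changes lay between −0.07 and 0.11. The 95% intervals of all 70 lay within −0.24 and 0.24. A change of the size seen for 9 of the genes between Cho-Orgs P0 and P10 (0.42 or more in size) lay outside them, and that of Sdf2l1, at 0.23, did not. The intervals measure only the spread between these libraries, which may be smaller than that between mice or cultures. With limma-voom on the recovered fragments, 2 tests were called, those of Hsp90b1 described below.

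Hspa5, Hsp90b1, Xbp1 and Herpud1 were the 4 most abundant of the 10 genes in all 12 libraries. Hspa5 ranged from 328 to 347 FPKM with a median of 337, Hsp90b1 from 329 to 354 with a median of 341, and Xbp1 from 228 to 240.2 with a median of 234. Herpud1 ranged from 121 to 129 FPKM. Atf4 followed at 55.5 to 63.4 and Asns at 16.1 to 18.0 FPKM, and the ER gene Sdf2l1 came after them at 11.5 to 13.7 FPKM. Ddit3 (6.69 to 8.35), Trib3 (4.82 to 6.23) and Chac1 (2.47 to 3.43 FPKM) were lowest. In rank Hspa5 and Hsp90b1 were among the 89 most abundant genes of every library, and Chac1 was between the 8265th and the 9081st.

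For the low genes the spread over all 12 libraries was close to that of counting. The CV of Chac1 was 8.82%, where 66 to 135 fragments give 10.8% from counting alone. The same pair of values was 6.30% and 6.58% for Ddit3, 5.41% and 6.25% for Sdf2l1, and 3.29% and 3.42% for Asns. Hsp90b1 (2.63% and 0.632%), Hspa5 (1.53% and 0.620%), Atf4 (3.86% and 1.958%), Xbp1 (1.60% and 0.850%) and Herpud1 (2.33% and 1.37%) varied beyond counting, and Trib3 was at 7.69% and 6.75%.

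Hsp90b1 was at 342, 347 and 345 FPKM in the libraries labelled Pri-Hep, 331, 337 and 341 at P1, 329, 329 and 329 at P5, and 354, 352 and 345 at P10. The P5 libraries lay below those of every other group. The difference of P10 against P5 was 0.09 ± 0.02 on the log2 scale (adjusted p = 0.132 with limma, 0.0064 with limma-voom), and that of P5 against the libraries labelled Pri-Hep was −0.07 ± 0.02 (adjusted p = 0.247 and 0.0466). The 3 P5 libraries spread less than counting would give.

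Herpud1 was at 121, 121 and 123 FPKM in the libraries labelled Pri-Hep, 126, 125 and 127 at P1, 129, 129 and 129 at P5, and 126, 125 and 128 at P10. All 9 Hep-Orgs libraries lay above those labelled Pri-Hep, by 0.06 ± 0.01 on the log2 scale (adjusted p = 0.283). Atf4 was at 63.4, 63.4 and 63.0 FPKM at P10 and at 55.5, 58.6 and 61.3 FPKM at P5, a difference of 0.11 ± 0.03 (adjusted p = 0.244). Between P10 and P5 the groups did not overlap for 4 of the 10 genes, where 17.1% of all genes did not overlap. This was the pair with most such genes. In every other pair of groups 7 or 8 of the 10 genes overlapped, and 10.3% to 16.3% of all genes did not. Of the 88 pathway list genes tested in this table, 0 were called in any of the 7 comparisons, and 2 to 17 (2.27% to 19.3%) had an unadjusted p under 0.05, beside 3.97% to 11.5% of all genes.

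**Figure D4:**
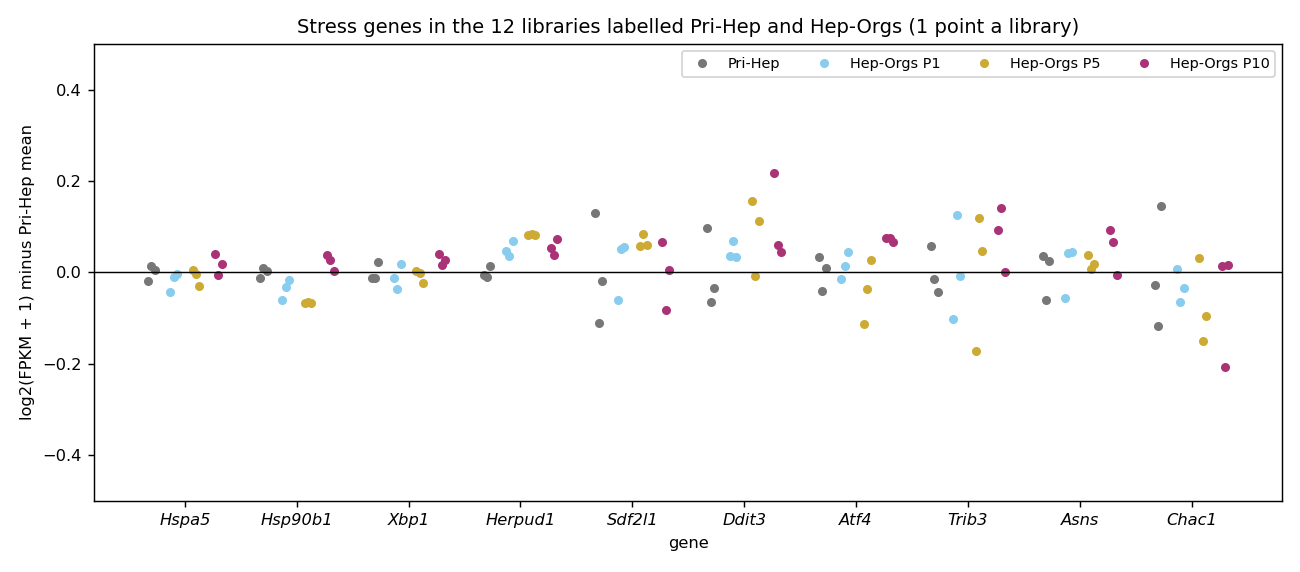
log2(FPKM + 1) of the 10 stress genes in the 12 libraries labelled Pri-Hep and Hep-Orgs, each minus the mean of the 3 libraries labelled Pri-Hep. Points are single libraries, coloured by group. Every point is within 0.25 of 0, and the low genes on the right spread more than Hspa5 and Xbp1.

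The third question was how the 10 genes stood in the 3 morphologies of Hep-Orgs at P0. With 1 library each there was no test, and the log2 ratios of FPKM + 1 below carry a 95% interval for counting error only, from approximate fragment counts. Hep-Orgs of all 3 shapes expressed the 10 genes, and Xbp1 in the grape-like library stood apart most. Of the 10 genes, 0 were higher in the grape-like than in the round-like library by a log2 ratio of at least 1 and 1 was lower, where 12.9% of 12595 genes were higher and 8.82% lower by that size. Against the intermediate library these counts were also 0 and 1 (9.71% and 7.15% of all genes), and between the intermediate and round-like libraries they were 0 and 0 (3.85% and 2.54%). Median-ratio scaling would raise ratios of intermediate to round-like by up to 0.15, so small ratios of that pair carry no direction. It would shift those of grape-like to round-like by up to 0.08 and those of grape-like to intermediate by up to −0.07. The counting intervals do not cover these shifts.

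Xbp1 was at 141 FPKM in grape-like, 344 in intermediate and 317 in round-like Hep-Orgs. Grape-like over round-like gave a log2 ratio of −1.17 (−1.19 to −1.14) and grape-like over intermediate −1.28 (−1.31 to −1.26). Herpud1 was instead highest in the intermediate library, at 89.7 FPKM against 50.1 in the grape-like and 48.4 in the round-like library. Intermediate over round-like gave 0.88 (0.82 to 0.93), and grape-like and round-like did not differ beyond counting (0.05, −0.01 to 0.10).

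The ER chaperones were lower in the grape-like library. Hspa5 was at 486 FPKM there, at 587 in the intermediate and at 588 in the round-like library. In the same order Hsp90b1 was at 488, 595 and 645 FPKM, and Sdf2l1 at 46.6, 60.1 and 59.9 FPKM. The log2 ratios to the round-like library were −0.27, −0.40 and −0.36 for the 3 genes. For Hspa5 and Sdf2l1 the intermediate and round-like libraries did not differ beyond counting (−0.00 and 0.00).

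The genes downstream of eIF2 alpha split. Ddit3 was at 8.45 FPKM in the grape-like library against 3.82 and 3.84 in the other two, and Chac1 at 5.13 against 2.54 and 3.16. Over the round-like library this gave 0.97 (0.79 to 1.14) and 0.56 (0.36 to 0.75). Asns went the other way, at 14.6, 18.9 and 21.0 FPKM (−0.50, −0.59 to −0.42), as did Trib3 at 3.36, 4.01 and 4.20 FPKM (−0.25, −0.43 to −0.08). Atf4 itself was at 114, 118 and 125 FPKM (−0.12, −0.16 to −0.09, and −0.04 with median-ratio scaling).

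Of the 13 amino acid genes, 11 were below 0 in grape-like over round-like and 7 by at least 1, with a median log2 ratio of −1.003. Of all genes 58.0% were below 0, with a median of −0.13. The 2 above 0, named after their values were seen, were the amino acid transporter subunit Slc3a2 (39.4 against 18.2 FPKM, 1.07) and Cth, an enzyme of cysteine synthesis (9.56 against 4.33 FPKM, 0.99). Phgdh was at 17.5, 48.5 and 83.6 FPKM and Psat1, the next enzyme of serine synthesis, at 37.7, 85.6 and 135 FPKM in the order used above. All 12 synthetases were below 0, with a median of −0.46, led by Gars (−1.03) and Wars (−0.85). Of the ER chaperones 13 of 15 were below 0, led by Creld2 (−0.78) and Hyou1 (−0.76). Of the 12 degradation and translocation genes 8 were below 0, close to the share of all genes, with a median of −0.20 and the lowest values at Sec61b (−0.98) and Sec61a1 (−0.81).

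Among the partners of ATF4 the values scattered, from Stc2, listed at 0 in the grape-like library and at 6.37 FPKM in the round-like, to Atf3, a transcription factor at 20.0 against 8.60 FPKM. Creb3l3 was at 8.91 FPKM against 0.923 and Ppp1r15a at 19.1 against 11.4 FPKM. The heat shock genes Hspa1b (−1.85) and Hsph1 (−1.36) and the mitochondrial chaperonins Hspd1 (−1.19) and Hspe1 (−0.87) were lower in the grape-like library.

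The 3 libraries also differed in their cells. All 6 macrophage markers, 5 endothelial markers and 5 stellate cell markers were higher in the grape-like than in the round-like library by a log2 ratio of at least 1. Their sums were 7901, 60.6 and 812 FPKM in the grape-like library, 2324, 24.5 and 199 FPKM in the intermediate, and 1216, 10.3 and 141 FPKM in the round-like. The sum of 8 hepatocyte markers was 5779, 10270 and 1389 FPKM and that of 6 cholangiocyte markers 846, 3356 and 2744 FPKM in the same order. Their part in the stress gene values was not tested.

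Set side by side across the tables, the 10 genes kept different proportions. The ratio of Hsp90b1 to Hspa5 was 0.971 to 1.04 over the 12 libraries labelled Pri-Hep and Hep-Orgs and 1.00, 1.01 and 1.10 in the Smart-Seq libraries, and it was the Cho-Orgs that departed from 1 on either side. The ratio of Chac1 to Asns was 0.140 to 0.200 in the hepatocyte table, and 0.352, 0.1345 and 0.150 for the 3 Smart-Seq shapes in the order used above. The highest ratio of Chac1 to Asns in any of the 24 libraries was at Cho-Orgs P10. Ratios within a library do not depend on its scaling, but gene lengths used by the authors may differ between the tables.

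**Figure D5:**
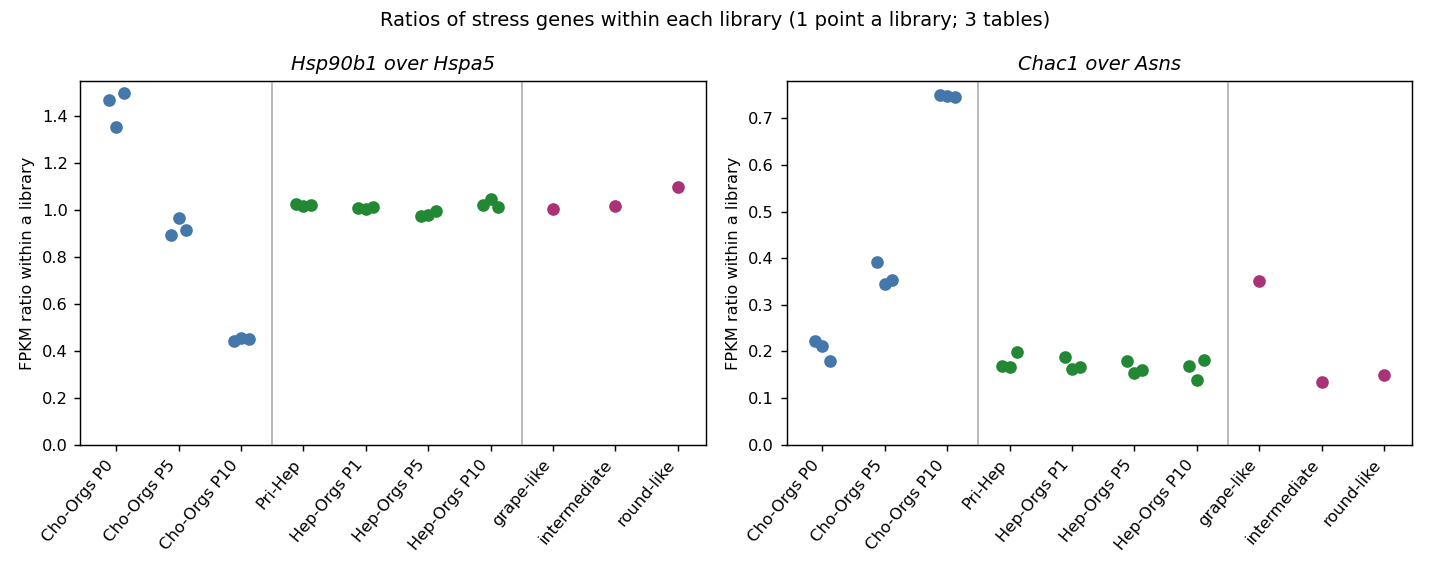
Ratio of FPKM within each library for Hsp90b1 over Hspa5 and for Chac1 over Asns, 1 point a library, with vertical lines between the cholangiocyte, hepatocyte and Smart-Seq tables. Hsp90b1 over Hspa5 goes from 1.35 to 1.49 at Cho-Orgs P0 to 0.440 to 0.452 at P10 and is near 1 elsewhere, and Chac1 over Asns reaches 0.746 to 0.750 at Cho-Orgs P10.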

How the data were processed

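Bulk poly(A) and Smart-Seq libraries were sequenced, and the authors deposited 1 FPKM table per experiment. The submitters' notes name featureCounts 2.0.3, edgeR 3.40.2 and mm10, and the aligner is not given in the sources used here. Groups came from the sample labels. The 10 genes and the pathway lists were chosen with earlier results of these data known.

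FPKM as deposited by the authors was transformed to log2(FPKM + 1). Genes with at least 1 FPKM in at least 3 libraries were tested with limma 3.58.1 in R 4.3.3 (group means, trended empirical Bayes, Benjamini-Hochberg adjustment over all genes tested), with all groups of a table in 1 fit. The study's figure legends tie replicate numbers 1 to 3 to 3 mice, which its labels do not state, so p-values may measure only the spread between these libraries. Deviations from the group means of same-numbered libraries correlated at −0.0741 to 0.119 (median −0.00626, 9 pairs) in the cholangiocyte table and −0.0763 to 0.0548 (median −0.00155, 18 pairs) in the hepatocyte table. In the hepatocyte table, FPKM times the deposited gene length (a listed value in bases, not used otherwise) gave whole fragments within 0.02, and depth elsewhere was estimated. Intervals on fragments cover counting error only. The model was tested on simulated data with the same spread in every group. That test does not cover the larger spread at Cho-Orgs P0. Within each pathway list, the genes named were up to 2 called genes with the largest rise, up to 2 with the largest fall and the gene of highest mean FPKM at Cho-Orgs P10 against P0, and for Smart-Seq the 2 of largest ratio. Alternatives were the pseudocount (0.1), the filter, TPM and median-ratio scaling, a fold of at least 2, a replicate block, single libraries left out and, chosen after seeing the data, limma-voom on fragments. In the list of genes most like Asns, 1 gene is not reported here.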

Additional observations from a re-analysis of the deposited data

Results flagged for a closer look

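In the Cho-Orgs, 4 stress genes were picked out because their change differed between the 2 passage steps by the test of the difference itself. The same test called 20.9% of all genes higher in the second step and 27.8% lower, so such calls were not particular to these genes. The second step minus the first was 0.48 on the log2 scale for Xbp1 and 0.84 for Herpud1, which were called higher in the second step alone. It was −0.47 for Sdf2l1, which was called in the first step alone, and −0.54 for Ddit3, which rose in both and by less in the second.

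For Hsp90b1 and Herpud1, the 3 libraries at P10 and the 3 at P5 did not overlap in either table and lay in opposite order. Of all genes, 74.2% did not overlap between these passages in the Cho-Orgs and 17.1% in the Hep-Orgs. Hsp90b1 changed by −0.35 in the Cho-Orgs and 0.0893 in the Hep-Orgs, and Herpud1 by 0.86 in the Cho-Orgs and −0.0282 in the Hep-Orgs. This difference between the libraries labelled Cho-Orgs and Hep-Orgs, which both carried biliary markers, was not tested, since the tables were normalised separately, and neither change in the Hep-Orgs was called by limma.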

How the results depend on the processing

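Requiring a fold of at least 2 left 4 stress genes higher at Cho-Orgs P5 against P0, 2 higher and 0 lower at P10 against P5, 0 lower at P10 against P0, and 0 in either direction for the difference between the steps. Of the genes called higher at P10 against P0, Xbp1 (0.63), Herpud1 (0.88) and Sdf2l1 (0.23) were lost by that rule. The number of genes with a lower second step was 0 without the filter, 4 after rescaling to TPM and 1 with median-ratio scaling. Without single libraries it ranged from 0 to 4 (4 without P0 replicate 1, 0 without P5 replicate 1 or P5 replicate 3, 1 without P10 replicate 1), and the number with a higher second step from 2 to 4 (4 without P0 replicate 3). Genes lower at P5 than P0 ranged from 0 to 1, the 1 being Hsp90b1 without P0 replicate 3 (−0.14, adjusted p = 0.0458).

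Signs changed only for values near 0. At P5 against P0, median-ratio scaling gave −0.0105 for Xbp1 and −0.0682 for Herpud1, which ranged from −0.0207 to 0.0975 without single libraries. For the step difference of Atf4 the scaling gave 0.0429, and the range without single libraries was −0.2052 to 0.0305. Chac1 in all Hep-Orgs against the libraries labelled Pri-Hep ranged from −0.1126 to 0.0195. With limma-voom, 1 stress gene was lower at Hep-Orgs P5 than in the libraries labelled Pri-Hep and 1 higher at P10 than at P5.

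In the Smart-Seq libraries, 1 gene was higher by a log2 ratio of at least 1 in grape-like than in round-like organoids with a pseudocount of 0.1, with TPM and with median-ratio scaling, 1 in intermediate than in round-like with median-ratio scaling, and 1 in grape-like than in intermediate with the pseudocount and TPM. For intermediate over round-like, median-ratio scaling gave 0.1468 for Hspa5, 0.0328 for Hsp90b1, 0.1129 for Ddit3, 0.0628 for Atf4 and 0.0662 for Trib3, and TPM gave −0.0571 for Sdf2l1. For grape-like over intermediate, TPM gave 0.0465 for Atf4. The causes of these changes were not tested. Of the pathway lists, stress sensors lower at P10 went from 3 to 1 with a mean FPKM of at least 5.

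The study's text ties the replicate numbers to 3 mice. With a replicate block the P10 against P0 call of Sdf2l1 was lost (0.23, adjusted p = 0.0557) and the step difference of Asns was called (−0.60, adjusted p = 0.0385), and no other call of a stress gene in the Cho-Orgs changed. All 12 hepatocyte libraries had the same median-ratio size factor, so this scaling could not change a ratio there. The approximate fragments behind Chac1 in that table (66 to 135) limit what could be seen of it.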
